A study of Mus musculus with 17 samples.

Results

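Activins and inhibins are secreted dimers of the TGF-β family, and 10 genes of their pathway were described in mouse lung RNA. The members were taken by gene symbol: Inhba and Inhbb (ligand subunits), Fst and Fstl3 (secreted antagonists), Acvr1 and Acvr1b (type I receptors), Acvr2a and Acvr2b (type II receptors), and Bambi and Smad7 (inhibitors at the membrane and inside the cell). All 10 were among the 31245 genes of the count table and among the 26946 genes tested, and the rule used their symbols and not their levels. The study asked how perfluorooctanoic acid (PFOA), a persistent fluorinated surfactant, changes lung gene expression, and whether this depends on PPARα, a nuclear receptor that PFOA can activate.

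RNA was measured in 17 lungs, with a library per mouse, in 6 groups of genotype and drinking water. Wild type (WT) mice were Sv/129 animals from a commercial supplier. PPARα knock-out (KO) mice and mice with human PPARα in place of the mouse gene (KI) were bred from PPARα null and human PPARα heterozygous pairs. From 6 weeks of age, all mice ate the same custom diet that copies human eating habits. For 14 weeks they drank water with 0.5% sucrose, alone (vehicle) or with 6.2 μg/mL PFOA. The WT vehicle group had 2 libraries (1 female, 1 male) and WT PFOA had 3 (1 female, 2 male). The KO vehicle and KO PFOA groups had 3 females each. The KI vehicle and KI PFOA groups had 2 females and 1 male each. Because WT mice came from another source than KO and KI mice, genotype and breeding source cannot be told apart. Sex was not balanced over the genotypes.

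Total counts per library were 4116118 to 9237356. Ppara, the targeted gene, had a mean of 6.67 CPM (counts scaled by library size and by edgeR's TMM factors) in WT vehicle and 5.46 in WT PFOA, 10.4 and 10.1 in the libraries labelled KO, and 14.4 and 14.8 in those labelled KI. The libraries labelled KO thus did not have less of this RNA. Counts per gene do not show which parts of the gene were read, so they do not test the knock-out. The names KO and KI are used here as labels. Protein-coding genes took 65.3% of the counts in WT vehicle mouse 122, 61.3% in KO vehicle mouse 137 and 74.4% to 80.4% in the other 15 libraries. Markers of club, ciliated, alveolar, endothelial, stromal and immune cells were all detected. Cardiac muscle markers were detected too, with sums that varied widely, from 325 to 6046 CPM in PFOA and 276 to 6904 CPM in vehicle libraries. The part of cardiac tissue in the results was not tested. In such whole-tissue RNA, fewer cells of a type and less RNA per cell cannot be told apart.

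Activins are made of β subunits alone, and a β subunit joined to an α subunit makes an inhibin, which counteracts activins. Activins bind a type II receptor, which recruits and phosphorylates a type I receptor, and this in turn activates the transcription factors SMAD2 and SMAD3. Follistatin, encoded by Fst, and the related protein of Fstl3 bind activins outside the cell and keep them from their receptors. Bambi is a receptor-like protein without a kinase domain, and Smad7 blocks the activated type I receptor. In the lung, activin A is known for its part in inflammation and fibrosis, and follistatin as its antagonist.

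The promoters of the ligand subunit genes are shown because the subunits can replace each other in the dimer while their RNA levels differed in these lungs. Each run is the 250 bases before the annotated start in build GRCm38.p6 (RefSeq), 5′ to 3′ on the gene's strand, with CG in capitals.

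Inhba, plus strand, chr13:16011601-16011850: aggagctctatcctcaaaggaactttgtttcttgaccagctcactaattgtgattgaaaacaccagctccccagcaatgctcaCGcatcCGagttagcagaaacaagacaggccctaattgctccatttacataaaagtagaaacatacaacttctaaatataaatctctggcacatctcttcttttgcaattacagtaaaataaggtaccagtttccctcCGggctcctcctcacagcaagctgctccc

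Inhbb, minus strand, chr1:119422249-119422498: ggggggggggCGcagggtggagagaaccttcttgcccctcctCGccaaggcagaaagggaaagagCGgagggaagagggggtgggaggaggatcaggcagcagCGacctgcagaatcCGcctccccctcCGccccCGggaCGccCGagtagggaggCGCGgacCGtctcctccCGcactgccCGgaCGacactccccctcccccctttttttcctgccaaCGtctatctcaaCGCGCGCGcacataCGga

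The Inhbb window held 21 CG and 68% G or C, and the Inhba window held 3 CG and 43.2% G or C. Over 32536 promoters of this length the median was 6 CG and 52.4% G or C. The letters TATAAA were searched on both strands and were found in 12.3% of all windows. In the Inhba window they start 91 bases before the gene. The letters AGGTCA, the site that nuclear receptors such as PPARα bind in pairs, were in 14% of all windows and in neither of these 2. Of the 7 members with an entry in the promoter table, Fstl3 held AGGTCA and both Fstl3 and Inhba held TATAAA. These matches describe letters and no binding was measured.

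Compared per kilobase (kb) of exon, the members spanned a wide range of levels in the lung. Smad7 was the most abundant at a mean of 27.6 CPM per kb (23.8 to 31.2 over 17 libraries), and it was above the next gene in all 17. Acvr1b, the main type I receptor for activins, followed at 12.5 (9.38 to 14.8), and exceeded Fstl3 (9.39) in 15 libraries. Acvr2a, a type II receptor, was at 8.59, Acvr1, a type I receptor used mostly by BMPs, at 5.18, and Acvr2b, the other type II receptor, at 4.83. Next were Inhbb at 4.08, Bambi at 2.12, Fst at 1.32 and Inhba at 1.31 CPM per kb. Inhbb RNA was therefore above Inhba RNA in these lungs, while Inha, the α subunit that inhibins need, had 0.925 CPM per kb. Besides Smad7 over Acvr1b, the order of neighbours held in all 17 libraries for Acvr2a over Acvr1 and for Inhbb over Bambi. It held in 14 for Acvr1 over Acvr2b and for Bambi over Fst, in 12 for Acvr2b over Inhbb, in 11 for Fstl3 over Acvr2a and in 8 for Fst over Inhba. The plot of levels per kb shows this order.

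**Figure D1:**
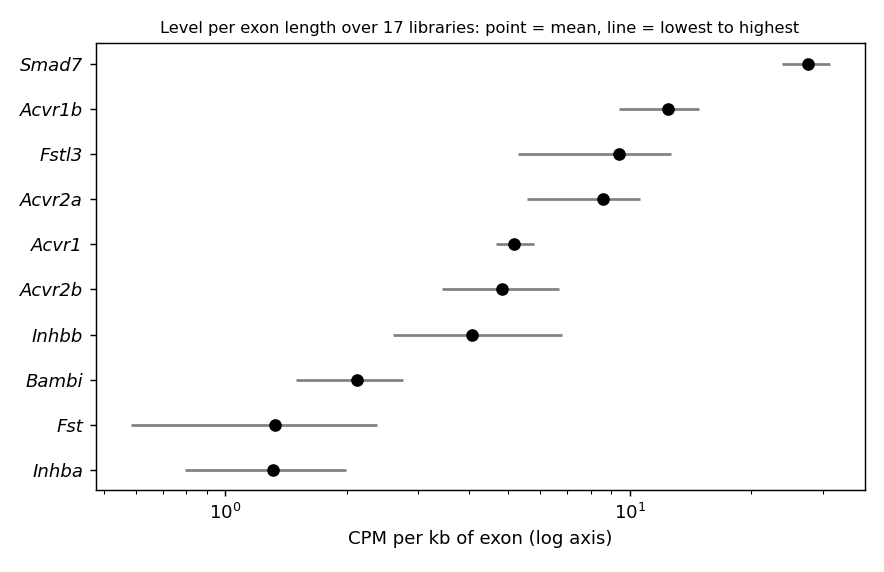
Level of each member in CPM per kb of exon (x axis, log scale) over 17 libraries, with the mean as a point and a line from the lowest to the highest library. Smad7 at 27.6 stands highest, and the lines of Fst and Inhba cover each other near 1.3.

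The members also differed in how evenly they were expressed. Acvr1 varied least, with its highest library 1.24 times its lowest, followed by Smad7 at 1.31 times. Fst varied most, at 4.08 times, and had only 19 to 86 counts per library. The SD of log2 levels within groups was 0.11 for Acvr1 and also 0.11 for Smad7, against 0.49 for Fst and 0.47 for Inhba. For Acvr1 the SD that counting alone gives at its median count was 0.10, and for Fst it was 0.23.

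**Figure D2:**
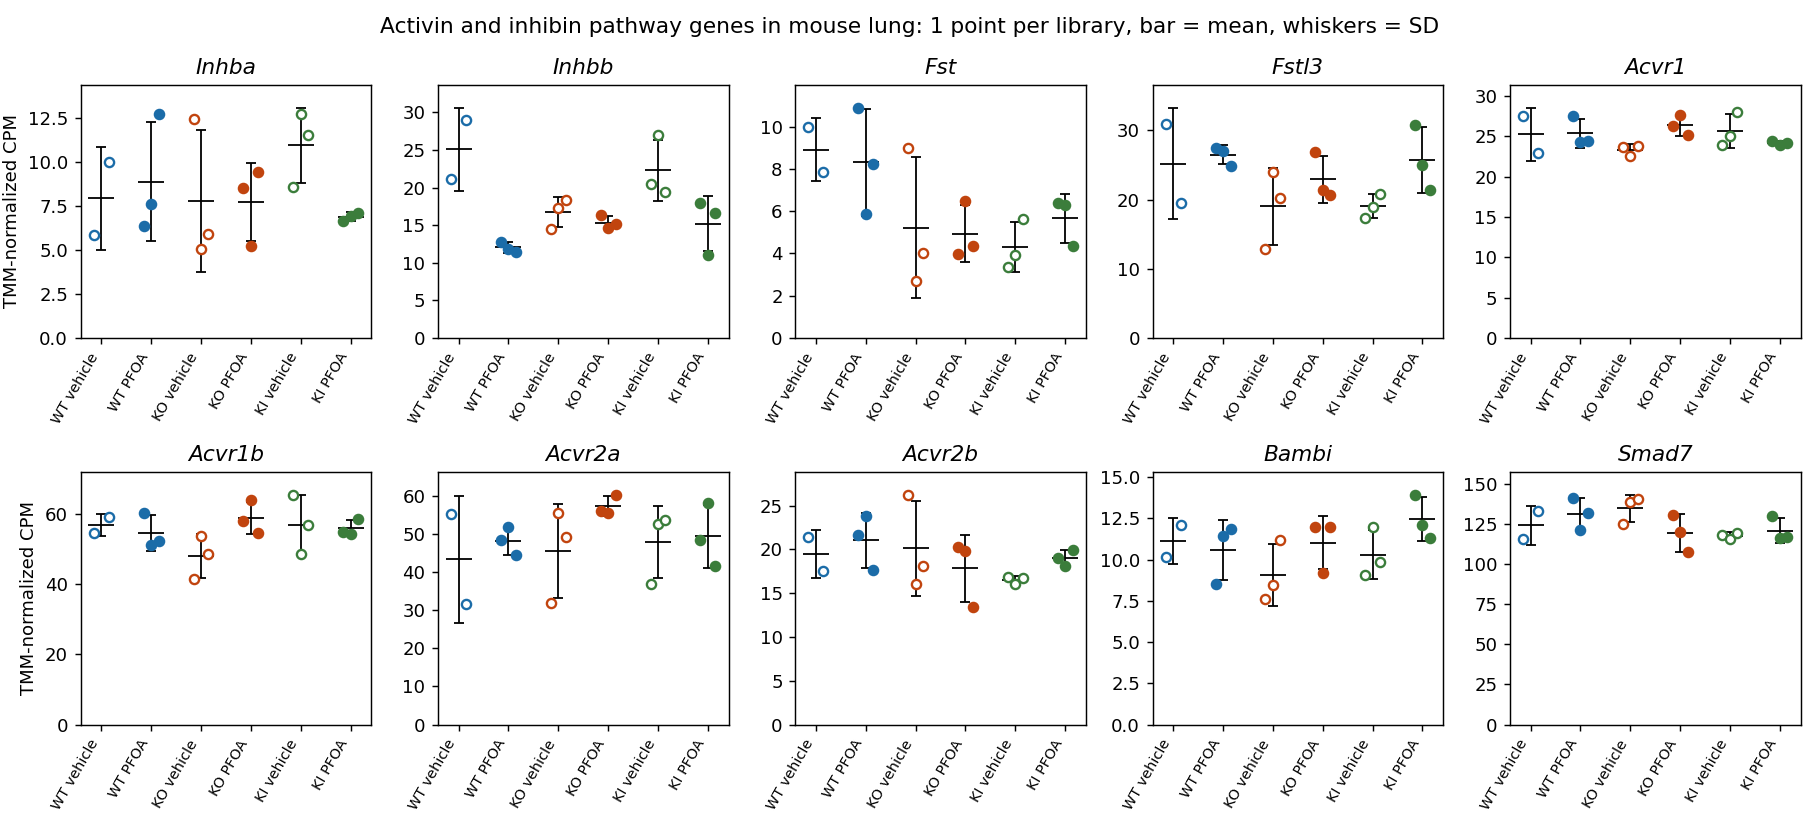
TMM-normalized CPM (y axis, from 0) of the 10 members in each library, by group (x axis). Each point is a library, open for vehicle and filled for PFOA, with the group mean as a bar and the SD as whiskers. The WT PFOA points of Inhbb lie between 11.4 and 12.8, below the WT vehicle points at 21.2 and 29.0.

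Inhbb encodes the βB subunit of activin B and inhibin B. It is located on chromosome 1, 119415465 to 119422248 (mm10, minus strand), and no other annotated gene overlaps it. In WT vehicle lungs it had 21.2 CPM in mouse 107 and 29.0 CPM in mouse 122. In WT PFOA lungs it had 12.8, 11.8 and 11.4 CPM in mice 50, 56 and 65. All 3 exposed WT libraries were below both vehicle libraries. The mean was 25.1 ± 5.52 CPM (SD, n = 2) on vehicle and 12.03 ± 0.699 CPM (SD, n = 3) on PFOA, a ratio of 0.481 in the fit. The log2 fold change was -1.06 (standard error 0.22), with an unadjusted p of 0.000123 and an adjusted p of 0.304 over all genes from edgeR's quasi-likelihood test. To count as altered, a gene needed a fold change above 2 together with an adjusted p below 0.2, so Inhbb was not altered in this test. With DESeq2 on the same genes it was altered, at -1.06 (adjusted p = 0.0434), as were 0.0891% of all genes. Inhbb is one of the genes that the study named from these same libraries, so its direction in WT is not independent evidence.

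The size of the WT difference depended on the vehicle libraries. Without mouse 107 the log2 estimate was -1.27 (standard error 0.25, adjusted p = 0.0241, edgeR), which passed the threshold, as did 6.25% of all genes in that fit. Without mouse 122, the library with the low protein-coding share, it was -0.81 (standard error 0.26, unadjusted p = 0.00579, adjusted p = 1.0, edgeR). In both fits the lone WT vehicle library was assumed to vary like the libraries of the other groups.

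In KI lungs Inhbb had 20.5, 27.0 and 19.4 CPM on vehicle (mice 102, 116 and 135). On PFOA it had 17.9, 11.05 and 16.6 CPM (mice 57, 80 and 139). The KI groups did not overlap either, with every exposed library below every vehicle library. The mean was 22.3 ± 4.09 CPM on vehicle and 15.2 ± 3.65 CPM on PFOA (SD, n = 3 each). The log2 fold change was -0.55 (standard error 0.20, unadjusted p = 0.0112, adjusted p = 1.0, edgeR). Without KI PFOA mouse 80 it was -0.37 (standard error 0.20, unadjusted p = 0.0780, adjusted p = 1.0, edgeR).

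In KO lungs Inhbb had 14.5, 17.3 and 18.3 CPM on vehicle (mice 137, 145 and 149) and 16.3, 14.6 and 15.1 CPM on PFOA (mice 52, 154 and 155). These groups overlapped through vehicle mouse 137, and the log2 fold change was -0.13 (standard error 0.20, unadjusted p = 0.519, adjusted p = 0.828, edgeR). Vehicle mice 145 and 149 were above all KO PFOA libraries. Mouse 137 had the fewest total counts of all libraries and a protein-coding share of 61.3%. The KO fold of Inhbb without this mouse is not given here, so no lower level on PFOA is read from the other KO libraries. The KO vehicle libraries were all below the WT vehicle libraries and below the KI vehicle libraries, while the KO PFOA libraries were all above the WT PFOA libraries. The share of all genes that separated between genotypes in this way is not given here, so no result is read from it. The fitted log2 difference of KO from WT was -0.58 on vehicle (standard error 0.22, adjusted p = 0.299, edgeR) and 0.35 on PFOA (standard error 0.20, adjusted p = 0.781, edgeR).

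The PFOA effect on Inhbb in KO differed from that in WT by 0.93 on the log2 scale (standard error 0.30, unadjusted p = 0.00578), which did not pass over all genes (adjusted p = 0.669, edgeR). For KI against WT the difference was 0.50 (standard error 0.29, adjusted p = 0.999, edgeR), and for KI against KO -0.42 (standard error 0.28, adjusted p = 0.928, edgeR). An additive model of genotype and exposure, which sets the 9 PFOA against the 8 vehicle libraries, gave -0.55 (standard error 0.14, unadjusted p = 0.000683, adjusted p = 0.394, edgeR). DESeq2 gave -0.57 with an adjusted p of 0.0712, past the p threshold but with a fold change under 2. In the additive edgeR fit, leaving out single libraries gave from -0.61 (without KO vehicle mouse 137) to -0.44 (without WT vehicle mouse 122).

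Most markers of airway epithelium moved with Inhbb in WT. The summed level of the 4 club cell markers was 6753 to 8678 CPM in WT PFOA and 11433 to 24861 CPM in WT vehicle libraries. Of these 4, 3 were lower at an unadjusted p under 0.05, and 1 was higher but not at that p. All 5 ciliated cell markers were lower at that p, with sums of 236 to 335 CPM against 371 to 625 CPM. Of the 5 smooth muscle markers, 3 were lower at that p, with sums of 856 to 1592 CPM against 1422 to 2536 CPM. None of these 14 markers was at 0 in all libraries. Other lists were higher in WT PFOA libraries without overlap. The 5 T and B cell markers summed to 17.5 to 26.2 CPM against 4.75 to 16.4 CPM (5 of 5 higher, 1 at that p), and the 5 endothelial markers to 2079 to 2215 CPM against 1253 to 1987 CPM (5 of 5 higher, 0 at that p). An airway score, the mean standardized level of the 9 club and ciliated markers, was 0.059 and 1.90 in the WT vehicle libraries and -1.27 to -0.046 in WT PFOA libraries. With the score as a covariate, the WT log2 fold change of Inhbb was -0.81 (standard error 0.28, unadjusted p = 0.00930, adjusted p = 1.0, edgeR), and that over the genotypes -0.38 (standard error 0.14, unadjusted p = 0.0113, adjusted p = 1.0, edgeR). In KI, where the scores of the exposures overlapped (-0.67 to 0.94 on PFOA and 0.45 to 0.76 on vehicle), it was -0.49 (standard error 0.20, unadjusted p = 0.0209, adjusted p = 1.0, edgeR). In WT the scores of the exposures did not overlap, so score and exposure cannot be told apart well in those libraries. The part of airway, smooth muscle, endothelial and T and B cells in the WT result was not tested.

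**Figure D3:**
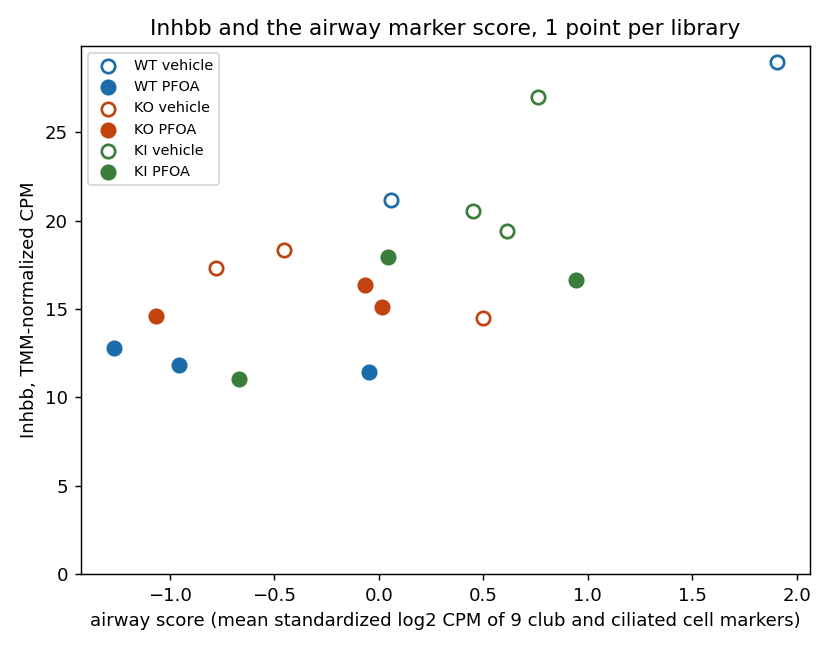
Inhbb in TMM-normalized CPM (y axis, from 0) against the airway score (x axis, mean standardized log2 CPM of 9 club and ciliated markers), 1 point per library, open for vehicle and filled for PFOA. WT vehicle mouse 122 has the highest score at 1.90 and the highest Inhbb at 29.0 CPM, and the WT PFOA mouse with the highest score, -0.046, has 11.4 CPM.

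The genes most like Inhbb over the 17 libraries, among 13371 genes whose mean was 5 CPM or more, were D5Ertd579e (Pearson r = 0.84), Iqcb1 (0.82), Trp53rka (0.80), Mgme1 (0.80) and Rab11fip3 (0.80). These values describe libraries that share groups and depth. With deviations from group means in place of levels, 1 of these 5 stayed among the top 5 (Trp53rka), and without the WT vehicle libraries 1 did (D5Ertd579e). The other members had r from -0.33 (Acvr2b) to 0.16 (Inhba). With deviations from group means they ran from -0.38 (Fst) to 0.50 (Smad7) and 0.45 (Bambi), and without the WT vehicle libraries from -0.61 (Fst) to 0.17 (Inhba).

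Inhba encodes the βA subunit of activin A and lies on chromosome 13, 16011851 to 16031621 (plus strand). In WT it had 5.86 and 9.99 CPM on vehicle and 6.34, 7.60 and 12.7 CPM on PFOA. In KO it had 12.4, 5.07 and 5.90 CPM on vehicle and 8.50, 5.22 and 9.42 CPM on PFOA. The groups overlapped in both genotypes. In KI it had 8.60, 12.7 and 11.5 CPM on vehicle and 6.62, 6.94 and 7.13 CPM on PFOA, so that every exposed library was below every vehicle library. The KI log2 fold change was -0.67 (standard error 0.34, unadjusted p = 0.0603, adjusted p = 1.0, edgeR) and -0.37 with the airway score as a covariate (unadjusted p = 0.161, adjusted p = 1.0). With the WT value at 0.18 and the KO value at 0.016, the KI effect differed from the WT effect by -0.85 (standard error 0.51, adjusted p = 0.999, edgeR).

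Among the secreted antagonists, Fstl3 (chromosome 10, 79777272 to 79782630, plus strand) had 17.4, 19.0 and 20.8 CPM in KI vehicle and 30.8, 25.1 and 21.4 CPM in KI PFOA libraries. All exposed KI libraries were above all vehicle libraries, the opposite direction to Inhbb and Inhba in the same mice. The log2 fold change was 0.44 (standard error 0.21, unadjusted p = 0.0561, adjusted p = 1.0, edgeR), and 0.29 without KI PFOA mouse 57. In the same KI groups, fibroblast markers summed to 1207 to 1501 CPM on PFOA and 1122 to 1196 CPM on vehicle (5 of 5 higher, 1 at an unadjusted p under 0.05). Alveolar macrophage markers summed to 259 to 349 CPM and 242 to 251 CPM (4 of 5 higher, 1 at that p). The part of these cells in the KI values of Inhba, Inhbb, Fstl3 and Acvr2b was not tested. In WT it had 30.9 and 19.5 CPM on vehicle and 27.5, 27.0 and 24.9 CPM on PFOA, and in KO 12.9, 23.9 and 20.2 CPM on vehicle and 26.8, 21.4 and 20.6 CPM on PFOA. These overlapped. Over the 3 genotypes the log2 fold change was 0.27 (standard error 0.13, unadjusted p = 0.0474, adjusted p = 0.600, edgeR). It was 0.21 (unadjusted p = 0.0855) without KO vehicle mouse 137, which had the lowest Fstl3 of all libraries.

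Fst (chromosome 13, 114452290 to 114458951, minus strand) overlapped between exposures in every genotype, and its mean was lower in KO and KI than in WT. The WT libraries had 9.99 and 7.86 CPM on vehicle and 10.9, 5.85 and 8.22 CPM on PFOA. In KO they had 8.98, 2.67 and 4.02 CPM on vehicle and 3.99, 6.49 and 4.34 CPM on PFOA, and in KI 3.34, 3.95 and 5.62 CPM on vehicle and 6.39, 6.30 and 4.33 CPM on PFOA. Most WT libraries were above most KO and KI libraries, with an overlap through WT PFOA mouse 56 and KO vehicle mouse 137. The means over both exposures were 8.56 ± 1.97 CPM in WT (SD, n = 5), 5.08 ± 2.28 CPM in KO and 4.99 ± 1.29 CPM in KI (SD, n = 6 each).

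The log2 difference of Fst was -0.77 for KO against WT (standard error 0.26, unadjusted p = 0.00798, adjusted p = 0.162, edgeR), past the p threshold with a fold change under 2. For KI against WT it was also -0.77 (standard error 0.26, unadjusted p = 0.00757, adjusted p = 0.230, edgeR), and for KI against KO it was 0.0015 (standard error 0.25). Within vehicle, Fst was at -0.83 in KO and -1.05 in KI against WT, and within PFOA at -0.74 and -0.55. In females alone the differences were -1.05 for KO (standard error 0.33, adjusted p = 0.314, edgeR) and -1.05 for KI (standard error 0.36, adjusted p = 0.530, edgeR). Without KO vehicle mouse 137 the KO difference was -0.99 (adjusted p = 0.0212, edgeR). It was -0.40 when the presumed i5 sequencing index was a covariate (adjusted p = 0.714, edgeR). This index was read from a number in each library's column name, and the headers do not say what that number is. The index was not balanced over the genotypes, and all KO PFOA libraries carried the same one.

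**Figure D4:**
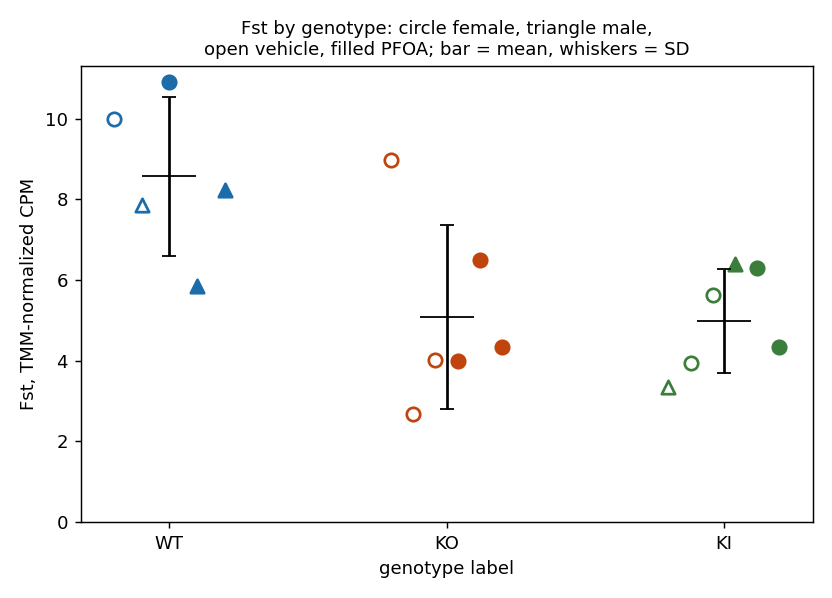
Fst in TMM-normalized CPM (y axis, from 0) by genotype label (x axis), 1 point per library, circles for females and triangles for males, open for vehicle and filled for PFOA, with the mean as a bar and the SD as whiskers. The mean is 8.56 in WT, 5.08 in KO and 4.99 in KI, and the 2 WT females are at 9.99 and 10.9.

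Both type I receptor genes overlapped between exposures in WT and KI. Acvr1b (chromosome 15, 101174067 to 101213684) had 41.5, 53.8 and 48.6 CPM in KO vehicle and 58.1, 63.8 and 54.6 CPM in KO PFOA libraries. Every exposed KO library was above every vehicle library. The fit gave a log2 change of 0.29 (standard error 0.14, unadjusted p = 0.0510, adjusted p = 0.511, edgeR), and 0.20 without mouse 137. Acvr1 (chromosome 2, 58388644 to 58567157) had 23.7, 22.5 and 23.9 CPM in KO vehicle and 26.3, 27.7 and 25.1 CPM in KO PFOA libraries. These KO groups did not overlap either, at a log2 fold change of 0.18 (standard error 0.13, unadjusted p = 0.206, adjusted p = 0.653, edgeR). That value was 0.066 with upper-quartile scaling, which put the KO median over all genes at -0.14 in place of -0.033. It was 0.32 when the presumed i5 index was a covariate. Markers of immune cells were also higher in KO PFOA libraries without overlap. The 5 alveolar macrophage markers summed to 333 to 376 CPM against 105 to 316 CPM, and the 5 T and B cell markers to 35.0 to 80.9 CPM against 18.9 to 31.1 CPM (5 of 5 higher and 2 at an unadjusted p under 0.05 in each list). Their part in these results was not tested. Over all libraries Acvr1 stayed between 22.5 and 28.0 CPM and Acvr1b between 41.5 and 65.4 CPM.

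Of the type II receptor genes, Acvr2b (chromosome 9, 119402118 to 119434995) had 16.9, 16.04 and 16.7 CPM in KI vehicle and 19.1, 18.1 and 19.98 CPM in KI PFOA libraries. The KI groups did not overlap, and the log2 fold change was 0.20 (standard error 0.20, unadjusted p = 0.321, adjusted p = 1.0, edgeR). Acvr2a (chromosome 2, 48814109 to 48903269) went from 31.6 to 60.3 CPM over all libraries and overlapped between exposures in each genotype. Its 2 lowest values, 31.6 and 31.8 CPM, were those of WT vehicle mouse 122 and KO vehicle mouse 137, the libraries with the low protein-coding shares. Acvr2a overlaps Orc4, a replication gene on the other strand with a mean of 38.0 CPM. How the counting used strand is not given in the sources used here, so reads of the pair may have been exchanged. The genes overlapping Inhba, Fstl3 and Acvr1 that were tested had means of 0.327, 0.547 and 0.366 CPM, far below the members.

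The inhibitors Bambi (chromosome 18, 3507923 to 3516404) and Smad7 (chromosome 18, 75367529 to 75395935) overlapped between exposures in every genotype. Bambi had 7.60 to 13.9 CPM and Smad7 had 108 to 141 CPM over the 17 libraries. Smad7 is itself switched on by TGF-β and activin signals as a feedback. These signals were not measured, and Smad7 RNA alone does not test them. On PFOA the log2 fold change of Smad7 was 0.080 in WT (standard error 0.14), -0.18 in KO (0.12) and 0.037 in KI (0.12). Those of Bambi were -0.072, 0.26 and 0.27 (standard errors 0.23, 0.21 and 0.21).

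**Figure D5:**
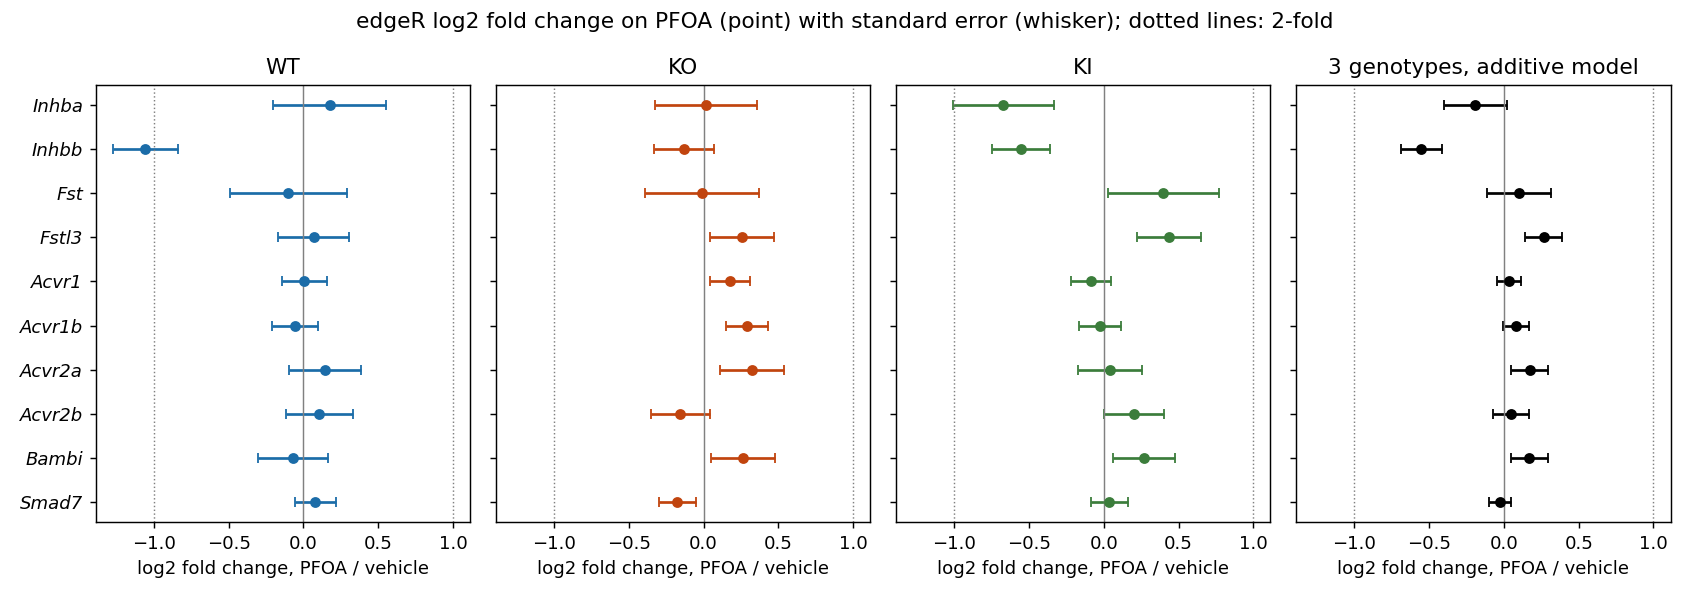
Log2 fold change of each member on PFOA against vehicle (x axis) in WT, KO, KI and in the additive model over the 3 genotypes, with the edgeR estimate as a point, the standard error as whiskers and a 2-fold change as dotted lines. Inhbb in WT, at -1.06, is the point outside the dotted lines.

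Counted over all members, PFOA altered 0 of 10 in WT by edgeR, where 0% of all 26946 genes were altered. At an unadjusted p under 0.05 it was 1 of 10 in WT (Inhbb), against 7.35% of all genes. Groups that did not overlap were found for 1 of 10 members in WT, against 22.5% of all genes. In KO, 0 of 10 members were altered (0% of genes), 0 had such a p (9.79% of genes) and 2 did not overlap (12.8% of genes). In KI, 0 of 10 were altered (0% of genes), 1 had such a p (2.59% of genes), and 4 did not overlap (8.23% of genes). Those 4 were Inhba and Inhbb, which were lower on PFOA, and Fstl3 and Acvr2b, which were higher. Over the 3 genotypes 0 of 10 were altered (0% of genes) and 2 had such a p, Inhbb and Fstl3 (8.27% of genes). The DESeq2 counts of altered members were 1 in WT (Inhbb) and 0 in KO, in KI and over the genotypes, among 24, 68, 1 and 26 altered genes in all without its filters, and 74, 72, 1 and 22 with its default filters.

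The median member was near 0 in each genotype. The median log2 fold change of the 10 was 0.037 in WT, 0.096 in KO and 0.041 in KI, and that of all genes was 0.036, -0.033 and 0.0052. Leaving Inhbb aside, the WT values ran from -0.10 (Fst) to 0.18 (Inhba). Tested as differences of effects, 0 of 10 members were altered in KO against WT (0% of genes), in KI against WT (0%) and in KI against KO (0%) by edgeR and by DESeq2. At an unadjusted p under 0.05 they were 1 (Inhbb, with 7.46% of genes), 0 (4.58% of genes) and 0 (5.42% of genes). Between genotypes, 0 of 10 members were altered in KO against WT, in KI against WT or in KI against KO by edgeR and by DESeq2, while 2.36%, 1.37% and 0.00742% of genes were by edgeR. At an unadjusted p under 0.05, Fst was the 1 member in KO against WT (12.9% of genes) and the 1 in KI against WT (9.65% of genes), and there were 0 in KI against KO (4.78% of genes).

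The rest of the activin, TGF-β and BMP pathway was taken from a list of 61 other genes, of which 57 were tested. On PFOA, 0 of 57 were altered in any genotype or over the genotypes, by edgeR or by DESeq2. At an unadjusted p under 0.05 there was 1 of 57 in WT (higher), against 7.35% of all genes, and 3 in KO (1 higher, 2 lower), against 9.79%. There were 2 in KI (1 higher, 1 lower), against 2.59%, and 6 over the genotypes (4 higher, 2 lower), against 8.27%. The gene in WT was Gdf11, a ligand that acts through activin receptors, which had 1.62 ± 0.028 CPM (SD, n = 2) on vehicle and 3.25 ± 0.225 CPM (SD, n = 3) on PFOA. On the log2 scale this was a difference of 0.999 (standard error 0.37, adjusted p = 0.548, edgeR), the opposite direction to Inhbb. These Gdf11 values rest on 22 counts in the WT vehicle and 73 in the WT PFOA libraries, so their small SDs do not show precision.

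Over the genotypes, the 6 genes were Gdf11, Tgfbr3, Bmpr2 and Bmper, which were higher, and Bmpr1b and Inhbe, which were lower. Tgfbr3, a coreceptor that helps inhibins to bind type II receptors, was at 0.31 (standard error 0.13), and Bmpr2, a type II receptor of BMPs, at 0.34 (standard error 0.16). Bmper, a secreted BMP regulator, was at 0.33 (standard error 0.15), Gdf11 at 0.40 (standard error 0.19), and Bmpr1b, a BMP type I receptor, at -0.47 (standard error 0.20). Their adjusted p-values lay between 0.535 and 0.594 (edgeR). Inhbe, another β subunit gene, had 8 counts in all PFOA and 42 in all vehicle libraries and 0 in 8 of the 17, so its fold is not given.

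Between genotypes, 1 of the 57 was altered in KO against WT by edgeR, where 2.36% of all genes were. In KI against WT and KI against KO, 0 of the 57 were altered, against 1.37% and 0.00742% of all genes. DESeq2 gave the same counts of the 57. The altered gene was Gdf11, with 5.50 ± 0.668 CPM in KO (SD, n = 6) and 2.599 ± 0.910 CPM in WT (SD, n = 5). Its counts summed to 232 in the KO and 95 in the WT libraries, with 22 in the 2 WT vehicle libraries. Within vehicle, 1 of the 57 (Gdf11) was altered in KO against WT by edgeR, where 368 of 26946 genes were. Within PFOA, 0 of the 57 were, where 271 of 26946 genes were. DESeq2 also gave Gdf11 on vehicle and none of the 57 on PFOA. All KO libraries were female, and no fit in females alone is given here for Gdf11. Every KO library was above every WT library, but the share of all genes that separated in this way is not given here. The log2 difference of Gdf11 from WT was 1.14 in KO (standard error 0.24, adjusted p = 0.0124, edgeR). In KI it was 0.71 (standard error 0.24, adjusted p = 0.226, edgeR). At an unadjusted p under 0.05 there were 15 of 57 in KO (8 higher, 7 lower), against 12.9% of all genes, and 9 in KI (3 higher, 6 lower), against 9.65%. For KI against KO there were 6 (3 of each), against 4.78%. Id1, a target gene of BMP signals, was at -0.58 in KO (adjusted p = 0.0271, edgeR), Tgfbr3 at -0.59 (adjusted p = 0.0503, edgeR) and Acvrl1, an endothelial type I receptor, at -0.40 (adjusted p = 0.142, edgeR). Ccn2 was at -0.53 (adjusted p = 0.140) and Pmepa1 at 0.40 (adjusted p = 0.121, edgeR), both known as TGF-β targets. In KI against WT, Acvrl1 was at -0.41 (adjusted p = 0.189, edgeR), and Smad9, Tgfbr3, Tgfb2 and Pmepa1 were at -0.41, -0.40, 0.50 and 0.32 with adjusted p from 0.312 to 0.347 (edgeR).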

How the data were processed

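The authors used STAR, within Partek Flow, to align total lung RNA reads to mm10, and deposited estimated counts per gene, without normalization, of which 27.8% are not whole numbers. The counting strand and annotation release are not given in the sources used here. Here the counts were rounded, and 26946 genes, those reaching a total of 20, were kept. edgeR 4.0.16 (R 4.3.3) fitted all 17 libraries with TMM factors and a coefficient per group, or genotype plus exposure, using the quasi-likelihood test with Benjamini-Hochberg adjustment over all genes tested. The study's thresholds, a fold change above 2 with an adjusted p below 0.2, defined altered genes. The study used DESeq2, which was an alternative here (1.42.0), beside other scalings, filters, covariates and each library left out. CPM are TMM-normalized. Exon lengths came from GENCODE M21. Depth puts 3 counts at 0.325 to 0.729 CPM, for counting error only.

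Members, lists and tests were chosen with earlier results of these data known. All members were named. A fold was given where the unadjusted p was under 0.05 or groups did not overlap, with other folds of a member given beside these for comparison. Of the wider list, up to 6 genes with the smallest such p were named in WT, over the genotypes, and in KO and KI against WT. The edgeR test was tried on simulated counts. Tables and figures used Python 3.11.15, pandas 2.3.3, numpy 2.4.6 and matplotlib 3.10.9.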

Additional observations from a re-analysis of the deposited data

How the results depend on the processing

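The number of members altered on PFOA in WT was 0 with edgeR, where 0% of all genes were altered. It was 1 (Inhbb) with DESeq2 without filters, against 0.0891% of all genes, and 1 (Inhbb) with its default filters, against 0.275%. Leaving out each library gave 0 to 1, with the 1 (Inhbb) without WT vehicle mouse 107, a fit in which 6.25% of all genes passed; the cause was not tested. The other 9 counts of altered members were 0 under each of their alternatives. Of the 12 single log2 fold changes followed, 0 changed direction, and Inhbb in WT had an unadjusted p under 0.05 in all 30 alternatives, with an adjusted p from 0.0241 to 1.0. No paired analysis was possible because the groups share no replicate number, each mouse having a number of its own. Inhba had 36 to 100 counts and Fst 19 to 86 counts per library, and the size of change that could be detected at these depths was not measured.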
